A study of Homo sapiens with 74 samples.

Results

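The clustered protocadherins are 53 genes that lie head to tail on the plus strand of chromosome 5 in 3 neighbouring clusters. They were chosen by symbol among the 39037 genes of the RNA table: 15 PCDHA genes, 16 PCDHB genes and 22 PCDHG genes, with the 5 C-type members PCDHAC1, PCDHAC2, PCDHGC3, PCDHGC4 and PCDHGC5 counted in their clusters and the pseudogene PCDHA14 left out. For contact with the nuclear lamina, the genes were followed through the 9 bins of 100 kb at chr5:140700001-141600000 (build hg38), of 28163 bins in the bulk and single-cell table and 29160 bins in a table of Dam variants. The other bins are named here by the Mb at which they begin. By their start positions, PCDHA1 and PCDHA2 lie in the first bin, PCDHA3 to PCDHA13 at 140.8 Mb, and PCDHAC1 and PCDHAC2 at 140.9 Mb. PCDHB1 and PCDHB2 start at 141.0 Mb, PCDHB3 to PCDHB11 with PCDHB16 at 141.1 Mb, and PCDHB12 to PCDHB15 at 141.2 Mb. The first 13 PCDHG genes start at 141.3 Mb and the last 9, PCDHGA9 to PCDHGC5, at 141.4 Mb. The bin at 141.5 Mb holds no start of a member, and the formin gene DIAPH1 lies there.

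Clustered protocadherins are cell surface proteins of the cadherin superfamily that bind like molecules on neighbouring cells and give neurons an identity by which their branches tell self from other. In the alpha and gamma clusters, each variable first exon has its own promoter and is spliced to constant exons shared by the whole cluster, while most PCDHB genes consist of a single exon. Single neurons switch on few of the promoters, a choice that involves DNA methylation, the architectural protein CTCF and cohesin, whereas the C-type members are expressed more broadly in neurons. The nuclear lamina is the protein layer under the inner nuclear membrane. Stretches of chromatin in contact with it, called lamina-associated domains (LADs), mostly hold genes that are expressed little.

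The cells were HEK293T, a line derived from human embryonic kidney that expresses neuronal genes and the SV40 large T antigen. In DamID, the bacterial methylase Dam marks the adenine of GATC, and DpnI cuts only the marked sites, so that a fusion of Dam to lamin B1 (LMNB1) marks DNA at the lamina and Dam alone marks accessible DNA. Bulk DamID held 2 libraries of cells with DamV133A-LMNB1 and 2 with DamV133A, a point mutant of Dam. The variant comparison held 2 libraries each of DamV133A-LMNB1, DamV133A, DamWT-LMNB1 and DamWT, where WT is wild-type Dam. RNA was sequenced from cells carrying DamV133A-LMNB1, DamV133A or m6A-Tracer, which is a reporter that attaches to GATC once Dam has methylated it, and from untreated cells, with 2 libraries a group. Single-cell DamID held 15 cells of batch 1 with DamV133A-LMNB1 and m6A-Tracer, 36 cells of batch 2 with DamV133A-tdTomato-LMNB1 and m6A-Tracer-NES, and 3 cells of batch 1 with DamV133A and m6A-Tracer. All constructs were introduced by transient transfection with FuGene HD, and the labels give a treatment of 20 hours with 1 mM Shield-1, which keeps proteins with a matching destabilised domain from degradation. That text stands on every sample, the untreated ones included. The labels do not say that the 2 libraries of a group came from separate cultures, so p-values measure only the spread between these libraries.

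A bulk DamID library held 402171358 to 524019579 counts and a variant library 3162041 to 10666805. Estimated RNA counts summed to 39690886 to 51455298 a library. Single cells held 9526 to 348793 fragments. RNA from LMNB1, which the fusion carries, was 2548 and 2056 CPM (the number of counts a gene would have if each library were of equal size, with TMM scaling) with DamV133A-LMNB1, 249.6 and 253.3 CPM with DamV133A, 250.7 and 257.4 CPM with m6A-Tracer, and 766.5 and 768.4 CPM in untreated cells. The fusion libraries were thus the highest, and both other transfected groups lay below the untreated cells. The RNA library DamV133A-LMNB1 replicate 2 correlated least with the others across genes, at 0.9741 to 0.9876, where the highest correlation between libraries was 0.9977. Of 11 HEK293T markers, 10 passed the low-count filter, and the kidney factor PAX8 was low, at a mean of 0.0651 CPM. Among markers of other cell types, the fibroblast genes COL1A1, COL1A2 and DCN averaged 26.9, 0.425 and 0.798 CPM, the blood genes PTPRC and CD3E 0.332 and 0.0266 CPM, the liver genes ALB and APOA2 0.404 and 0.0168 CPM, and the keratinocyte genes KRT5 and KRT14 0.00868 and 0.00854 CPM.

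The promoters are shown first because the promoter, with its own first exon, is what sets one clustered protocadherin apart from the next. RefSeq promoter windows (GRCh38.p14, 250 bases before to 50 after the gene start) were found for 47 of 53 members, with none in the table used for PCDHA3, PCDHA13, PCDHB6, PCDHB11, PCDHGA12 and PCDHGC5. The windows of the 3 members whose RNA changed below, and of PCDHGC3, the member with the most RNA, are printed 5′ to 3′ with each CGCT, or AGCG as its reverse, in capitals. CGCT is the core of a sequence element described at clustered protocadherin promoters, where CTCF binds.
PCDHA4, chr5:140806818-140807117, plus strand: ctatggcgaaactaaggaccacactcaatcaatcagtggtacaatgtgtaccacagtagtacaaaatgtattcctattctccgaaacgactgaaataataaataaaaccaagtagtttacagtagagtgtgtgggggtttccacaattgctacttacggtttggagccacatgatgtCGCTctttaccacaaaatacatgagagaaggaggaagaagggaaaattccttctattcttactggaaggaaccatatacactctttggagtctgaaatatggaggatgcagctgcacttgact
PCDHGA8, chr5:141392383-141392682, plus strand: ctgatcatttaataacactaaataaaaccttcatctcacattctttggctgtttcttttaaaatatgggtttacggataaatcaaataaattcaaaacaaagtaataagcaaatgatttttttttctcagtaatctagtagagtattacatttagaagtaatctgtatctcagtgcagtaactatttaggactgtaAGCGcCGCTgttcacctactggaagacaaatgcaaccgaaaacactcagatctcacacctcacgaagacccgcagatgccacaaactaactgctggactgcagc
PCDHGB7, chr5:141417427-141417726, plus strand: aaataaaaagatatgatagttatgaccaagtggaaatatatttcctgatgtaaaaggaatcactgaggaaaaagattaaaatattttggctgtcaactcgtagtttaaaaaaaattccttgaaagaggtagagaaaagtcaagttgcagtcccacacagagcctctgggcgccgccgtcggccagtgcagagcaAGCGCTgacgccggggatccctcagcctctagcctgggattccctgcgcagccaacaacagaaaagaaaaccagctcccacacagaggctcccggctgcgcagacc
PCDHGC3, chr5:141475716-141476015, plus strand: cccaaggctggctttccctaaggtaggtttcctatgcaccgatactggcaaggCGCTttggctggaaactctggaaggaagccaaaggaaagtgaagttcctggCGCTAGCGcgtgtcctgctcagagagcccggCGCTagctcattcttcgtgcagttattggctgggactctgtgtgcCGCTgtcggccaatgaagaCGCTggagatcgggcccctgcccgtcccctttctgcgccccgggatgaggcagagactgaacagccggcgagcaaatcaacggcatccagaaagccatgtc

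The search for CGCT covered both strands, and matches may overlap, as in the AGCGCT of PCDHGB7, where AGCG and CGCT share bases. A match was found in 46 of 47 members, which is 97.9%, against 70.0% of all 35116 RefSeq promoter windows. PCDHA9 was the member without one. The Dam site GATC, its own reverse complement, stood in 26 of 47 members (55.3%) against 41.7% of all windows, and 40 of 40 such sites fell on a border between DpnI fragments of the variant table. Variable promoters had little GC: 33.7 to 40.3% in PCDHA, 33.3 to 46.3% in PCDHB, 32.3 to 44.3% in PCDHGA and 43.0 to 51.3% in PCDHGB. The 4 C-type windows held 59.0 to 66.0% GC, above the range of every variable subcluster, and the median of all windows was 58.7%.

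Longer words around CGCT differed by cluster, and the next stretches of 50 bases show them in capitals. Each is the word of 10 bases around CGCT that most windows of its cluster hold, chosen on these windows, so its count is a description. TGATGTCGCT stood in 8 of 11 PCDHA windows outside the C-type and in 0.0342% of all windows, with its first base 44 to 87 bases before the start.
PCDHA1, chr5:140786076-140786125, plus strand: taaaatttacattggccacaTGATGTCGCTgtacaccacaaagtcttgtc
PCDHA4, chr5:140806969-140807018, plus strand: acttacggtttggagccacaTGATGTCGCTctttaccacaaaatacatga
PCDHA12, chr5:140875234-140875283, plus strand: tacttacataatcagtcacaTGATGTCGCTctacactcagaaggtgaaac

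GGTGGCGCTG stood in 12 of 14 PCDHB windows and 0.276% of all windows, 2 to 84 bases before the start.
PCDHB2, chr5:141094535-141094584, plus strand: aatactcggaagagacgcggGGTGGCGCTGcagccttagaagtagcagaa
PCDHB15, chr5:141245305-141245354, plus strand: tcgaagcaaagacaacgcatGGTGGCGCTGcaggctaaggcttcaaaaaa

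GCGCCGCTGT stood in 5 of 11 PCDHGA and 4 of 7 PCDHGB windows and in 0.131% of all windows, 44 to 99 bases before the start.
PCDHGA1, chr5:141330395-141330444, plus strand: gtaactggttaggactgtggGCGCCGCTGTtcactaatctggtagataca
PCDHGA7, chr5:141382641-141382690, plus strand: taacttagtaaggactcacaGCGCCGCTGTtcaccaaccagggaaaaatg
PCDHGA10, chr5:141412923-141412972, plus strand: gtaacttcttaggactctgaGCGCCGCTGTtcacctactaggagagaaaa

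All matches to the 3 words lay on the strand of the gene. None of the 3 words stood in a window of another cluster or in a C-type window. A match says that these letters are in the window and nothing of binding.

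In bulk DamID, most of the locus was higher with DamV133A-LMNB1 than with DamV133A: 6 of 9 bins were called higher and 0 lower at a Benjamini-Hochberg adjusted p under 0.05 in edgeR's quasi-likelihood test over all bins, where 71.5% of 27944 bins were called in either direction and 35.2% higher. By start, these 6 bins hold 38 of the 53 genes, and the others are PCDHA1, PCDHA2 and the first 13 PCDHG genes. PCDHA and PCDHG genes run from their first exon to the shared constant exons across several bins, and by the midpoint of each gene the 6 bins hold 52 of the 53. The locus was an island. The 5 bins before it and the 5 bins after it were all called lower with DamV133A-LMNB1, with log2 fold changes of −0.63 to −0.88 before and −0.78 to −1.64 after.

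Along the PCDHA genes the difference began inside the cluster. The bin of PCDHA1 and PCDHA2 held 36.5 and 50.9 CPM with DamV133A-LMNB1 against 45.3 and 39.1 CPM with DamV133A. The libraries overlapped, and the log2 fold change was 0.05 ± 0.20 (SE, n = 2 each, adjusted p = 0.827). The next bin, with PCDHA3 to PCDHA13 and among them PCDHA4 and PCDHA10, the PCDHA genes with the most RNA, held 38.4 and 40.1 CPM with DamV133A-LMNB1 against 20.5 and 18.9 CPM with DamV133A. It had the largest difference of the 9 bins, 1.00 ± 0.22 on the log2 scale (adjusted p = 0.000446). The C-type pair PCDHAC1 and PCDHAC2 start in the bin at 140.9 Mb, with 35.9 and 37.5 CPM with DamV133A-LMNB1 against 26.8 and 21.9 CPM with DamV133A (0.59 ± 0.22, adjusted p = 0.0200).

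All 3 bins with PCDHB starts were called higher. The bin of PCDHB1 and PCDHB2 had 41.3 and 34.5 CPM with DamV133A-LMNB1 against 26.4 and 21.8 CPM with DamV133A (log2 fold change 0.65 ± 0.22, adjusted p = 0.0119). The bin with 10 PCDHB genes had 22.2 and 36.5 CPM with DamV133A-LMNB1 against 18.0 and 14.9 CPM with DamV133A (0.83 ± 0.27, adjusted p = 0.00843), and its fusion libraries differed most from each other among the called bins. PCDHB12 to PCDHB15 lay in a bin with 28.5 and 29.3 CPM with DamV133A-LMNB1 against 20.5 and 19.4 CPM with DamV133A (0.53 ± 0.24, adjusted p = 0.0466), the nearest to the threshold.

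The PCDHG genes were split between 2 bins. The bin of the first 13, PCDHGA8 among them, held 20.1 and 27.9 CPM with DamV133A-LMNB1 against 20.3 and 26.2 CPM with DamV133A, values that overlapped (log2 fold change 0.05 ± 0.25, adjusted p = 0.879). The bin of the last 9, which include PCDHGB7, PCDHGA11 and the C-type PCDHGC3 to PCDHGC5, held 42.7 and 41.5 CPM with DamV133A-LMNB1 against 28.4 and 28.2 CPM with DamV133A (0.57 ± 0.20, adjusted p = 0.0159). Past the cluster, the DIAPH1 bin held 42.6 and 24.8 CPM with DamV133A-LMNB1 against 49.6 and 40.9 CPM with DamV133A (−0.43 ± 0.23, adjusted p = 0.102).

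**Figure D1:**
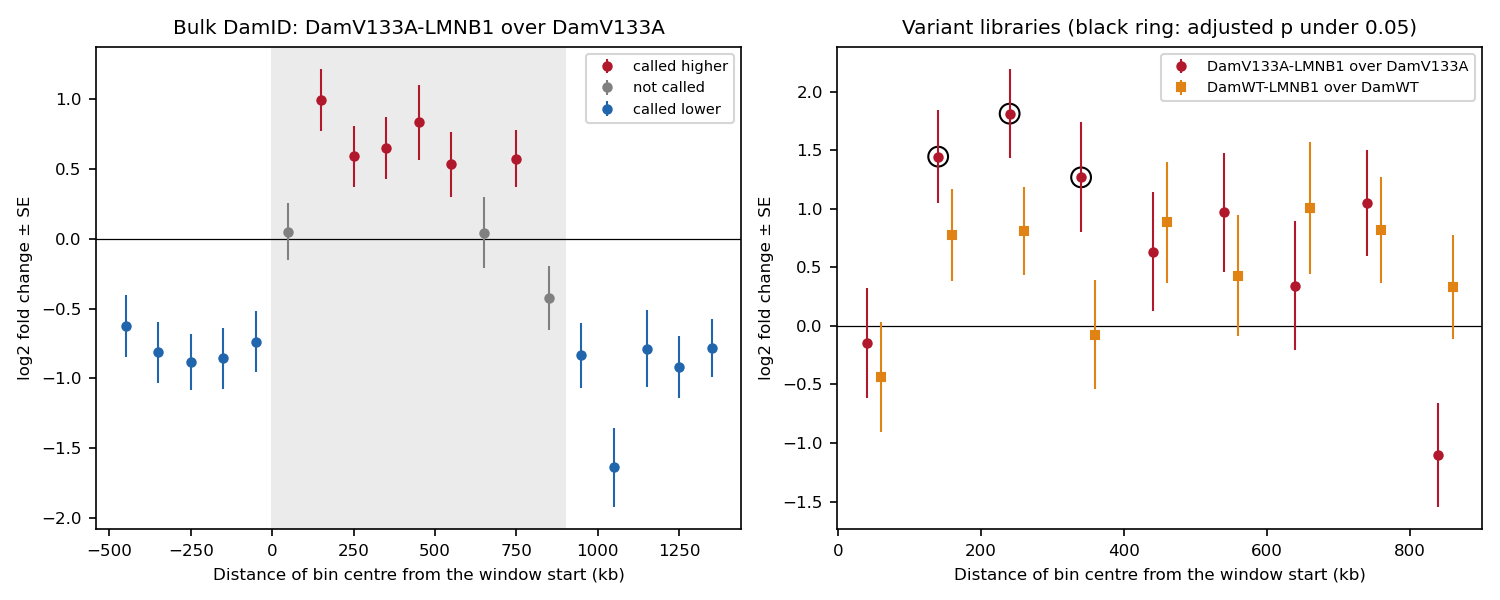
Log2 fold change with its standard error in 100 kb bins, by distance from the start of the locus. The left panel plots bulk DamV133A-LMNB1 over DamV133A with the 9 bins of the locus shaded and 5 bins on each side, and all 10 flanking bins lie below 0 while 6 of the 9 are called higher. The right panel plots the variant libraries over the 9 bins, DamV133A-LMNB1 over DamV133A in red and DamWT-LMNB1 over DamWT in orange, with rings on the 3 called bins.

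The 9849 bins called higher over the genome, taken as LAD bins, had log2 fold changes from 0.31 upward with a median of 1.14, and the 6 called bins here stood above 4.41 to 37.8% of them. The authors' deposited table gives log2 fold changes of 1.04 for the bin at 140.8 Mb and 0.58 for that at 141.2 Mb, and it marks none of the 9 bins as a control LAD or control inter-LAD bin. The calls depended on scaling and on single libraries. Shares of all bins called under these other settings are not given, so their counts cannot be read against the genome. With library totals in place of TMM, which moved the median of all bins to −0.32, against −0.06 with TMM, 1 bin was higher (140.8 Mb) and 1 lower (141.5 Mb, −0.68, adjusted p = 0.0101). Without DamV133A replicate 2, 1 bin was called, that at 140.8 Mb. Without DamV133A-LMNB1 replicate 2 or DamV133A replicate 1, 4 bins were called. Without DamV133A-LMNB1 replicate 1, 5 were called, 4 higher and the DIAPH1 bin lower (−0.87, adjusted p = 0.000546). The bins hold 222 to 329 DpnI fragments each, against a median of 242 over all bins.

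The variant libraries addressed the same question in separate libraries, and again with wild-type Dam. With V133A, 3 of 9 bins were called higher and 0 lower, where 50.7% of 28733 bins were called in either direction and 27.0% higher. These 3 bins lie side by side from PCDHA3 to PCDHB2. The bin of PCDHA3 to PCDHA13 held 43.6 and 63.3 CPM with DamV133A-LMNB1 against 23.7 and 15.4 CPM with DamV133A (log2 fold change 1.44 ± 0.39, adjusted p = 0.00821). The bin of the PCDHA C-type pair held 62.3 and 38.8 CPM with DamV133A-LMNB1 against 16.3 and 12.4 CPM with DamV133A (1.81 ± 0.38, adjusted p = 0.00180). PCDHB1 and PCDHB2 lay in a bin with 44.1 and 32.8 CPM with DamV133A-LMNB1 against 12.3 and 19.8 CPM with DamV133A (1.27 ± 0.47, adjusted p = 0.0355).

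The other PCDHB bins had log2 fold changes of 0.63 and 0.97 (adjusted p = 0.307 and 0.124). The first PCDHG bin had 0.34 (adjusted p = 0.618) and the PCDHG bin with the C-type genes 1.05 ± 0.45 (adjusted p = 0.0629). The bin of PCDHA1 and PCDHA2 had −0.14 ± 0.47 (adjusted p = 0.810), and the DIAPH1 bin held 19.2 and 20.0 CPM with DamV133A-LMNB1 against 45.7 and 38.4 CPM with DamV133A (−1.10 ± 0.45, adjusted p = 0.0504). DESeq2's test called 6 bins, of which 5 were higher and the DIAPH1 bin lower (−1.04, adjusted p = 0.0193). Shares of all bins called under DESeq2 and the other alternative settings for the variant libraries are not given. Those counts cannot be read against the genome. With library totals in place of TMM, which moved the median of all bins to −0.50, against −0.10 with TMM, 2 bins were higher and the DIAPH1 bin lower (adjusted p = 0.0128), while the bin of PCDHB1 and PCDHB2 lost its call (0.87, adjusted p = 0.136). Without DamV133A replicate 2, 1 bin was called. Without DamV133A replicate 1 or DamV133A-LMNB1 replicate 1, 2 were called, those of PCDHA3 to PCDHA13 and of the C-type pair.

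With wild-type Dam, edgeR called 0 of 9 bins between DamWT-LMNB1 and DamWT, 1 had an unadjusted p under 0.05, DESeq2 called 0, and 2.63% of all bins were called. From the bin of PCDHA1 to that of DIAPH1 the log2 fold changes were −0.44, 0.78, 0.81, −0.07, 0.88, 0.43, 1.01, 0.82 and 0.33. In simulated data where few bins changed, the V133A comparison recovered 0 of 99 changes of 1 on the log2 scale. In the real data with wild-type Dam, the standard errors of the 9 bins were 0.37 to 0.56. So 0 called bins, here or in the interaction below, cannot show that there was no difference. Whether the fusion acted otherwise on V133A than on wild-type Dam was tested as an interaction. EdgeR called 0 of 9 bins, with 1 at an unadjusted p under 0.05 and 0.494% of all bins called. The largest interaction was at DIAPH1, −1.44 ± 0.63 (unadjusted p = 0.0376, adjusted p = 0.206), and the bin of PCDHB1 and PCDHB2 had 1.34 ± 0.66 (adjusted p = 0.252). Between DamV133A and DamWT without the fusion, edgeR and DESeq2 called 0 of 9 bins, 1 had an unadjusted p under 0.05, and 0.0% of all bins were called. That bin holds the PCDHA C-type pair, with a log2 fold change of −1.10 (unadjusted p = 0.0117, adjusted p = 0.857).

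Few DpnI fragments carried these counts. Over the 9 bins, DamV133A-LMNB1 libraries covered 139 and 146 fragments, DamV133A libraries 174 and 195, DamWT-LMNB1 libraries 149 and 234, and DamWT libraries 264 and 257. Counts per covered fragment were 17.8 and 15.6 with DamV133A-LMNB1 against 9.58 and 5.38 with DamV133A, and 22.9 and 5.01 with DamWT-LMNB1 against 3.79 and 2.63 with DamWT. PCR copies are not separate molecules, and their part in the bins' differences was not tested. When covered fragments replaced counts, 4 bins were called with V133A, of which 3 were higher and the DIAPH1 bin lower. The first PCDHG bin was then called with wild-type Dam (1.15, adjusted p = 0.0333).

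Because the variant table gives single DpnI fragments, the locus could be cut at gene borders. No test was made on these sections, since they hold few covered fragments. The section from PCDHA1 to PCDHAC1 (140.2 kb) holds the variable PCDHA first exons and, past PCDHA13, a stretch with no start of a member. It held 40.3 and 52.5 CPM per 100 kb with DamV133A-LMNB1 against 20.1 and 13.7 with DamV133A. With wild-type Dam it held 41.0 and 35.3 with DamWT-LMNB1 against 21.7 and 30.6 with DamWT. From PCDHAC1 to the end of the constant exons (86.0 kb) the values were 57.4 and 39.2 with DamV133A-LMNB1 against 18.6 and 14.6 with DamV133A, and 54.5 and 45.4 with DamWT-LMNB1 against 31.6 and 17.7 with DamWT. In both sections the fusion libraries lay above the Dam libraries with either enzyme.

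From PCDHB1 to PCDHB15 (198.0 kb) the values were 33.4 and 22.3 CPM per 100 kb with DamV133A-LMNB1 against 12.9 and 13.1 with DamV133A. With wild-type Dam they overlapped, at 41.9 and 14.5 with DamWT-LMNB1 against 18.0 and 16.0 with DamWT. The gap between PCDHB and PCDHG (81.1 kb) held 32.0 and 43.7 with DamV133A-LMNB1 against 28.1 and 22.4 with DamV133A, a log2 ratio of means of 0.58. It overlapped with wild-type Dam, where the log2 ratio was 0.25.

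The variable PCDHGA and PCDHGB first exons (145.5 kb) held 28.4 and 35.5 CPM per 100 kb with DamV133A-LMNB1 against 20.1 and 13.2 with DamV133A, and 39.2 and 25.1 with DamWT-LMNB1 against 12.7 and 17.4 with DamWT. The C-type PCDHGC3 to the end of the PCDHG genes (37.0 kb) was the section of member genes where the libraries overlapped with both enzymes, at 32.0 and 18.5 with DamV133A-LMNB1 against 13.6 and 20.8 with DamV133A, and 8.14 and 12.5 with DamWT-LMNB1 against 22.1 and 10.9 with DamWT. In the PCDHA C-type section no libraries overlapped, but the difference between the 2 sections was not tested. The PCDHGC3 section held 5 to 12 covered fragments a library and the PCDHA C-type section 13 to 33. How often other regions fail to overlap was not counted, so the 2 sections cannot be said to differ. Before PCDHA1 the values were 22.5 and 25.9 with DamV133A-LMNB1 against 20.5 and 34.1 with DamV133A. After the PCDHG genes they were 21.7 and 19.3 with DamV133A-LMNB1 against 49.5 and 43.6 with DamV133A, a log2 ratio of −1.18. With wild-type Dam the libraries overlapped on that side, at 39.4 and 17.8 with DamWT-LMNB1 against 22.8 and 22.2 with DamWT, a log2 ratio of 0.35. Before PCDHA1 they were 20.9 and 35.8 with DamWT-LMNB1 against 35.8 and 37.4 with DamWT, a log2 ratio of −0.37.

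**Figure D2:**
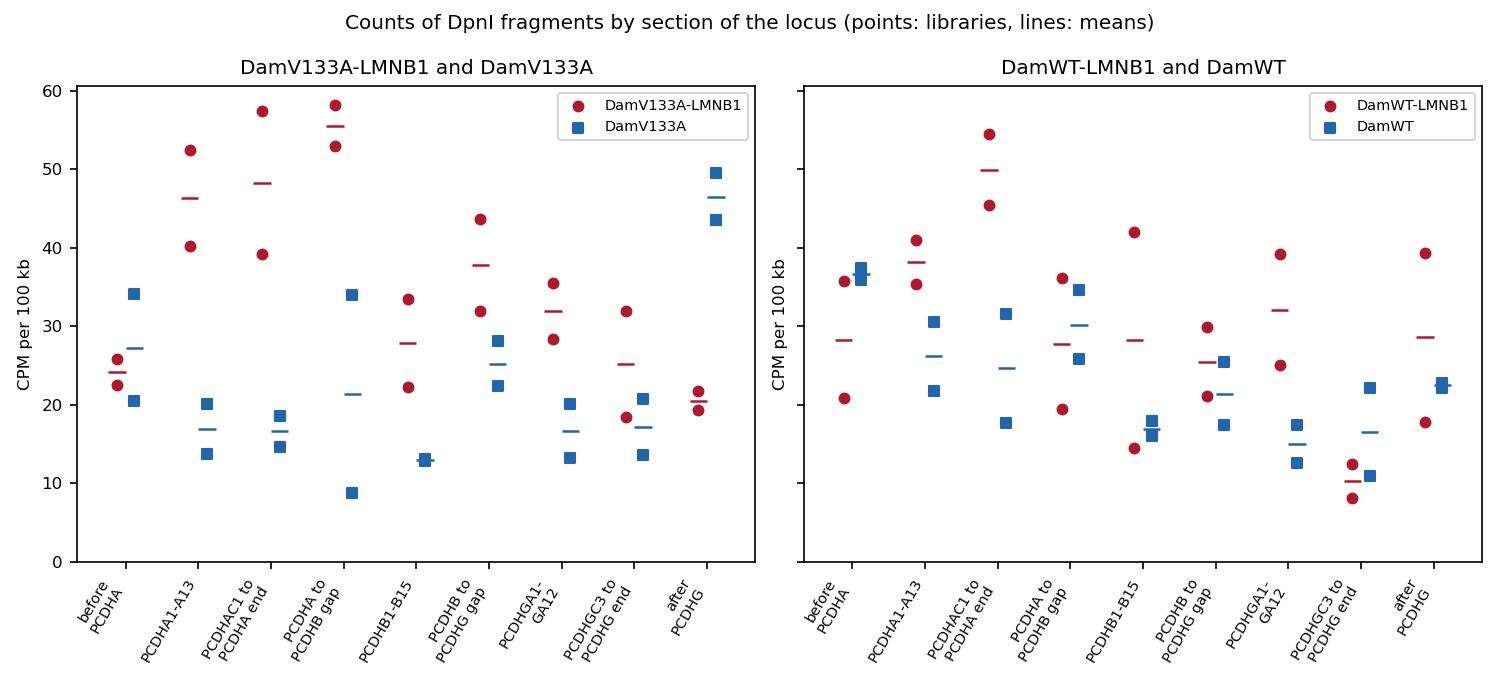
Counts of DpnI fragments as CPM per 100 kb in 9 sections of the locus cut at gene borders, in order along the chromosome, with points for libraries and lines for the means of 2. DamV133A-LMNB1 beside DamV133A is at left and DamWT-LMNB1 beside DamWT at right. In the sections from PCDHA1 up to PCDHGC3 the red points at left stand above the blue ones, and after the PCDHG genes they stand below. The section marked PCDHA1-A13 runs on to PCDHAC1, and that marked PCDHGA1-GA12 runs on to PCDHGC3.

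In single cells, each bin of the locus was scored against the level expected from Dam alone. A bin was counted as a contact where a cell's fragments reached the number expected from the summed bulk DamV133A libraries, scaled to that cell's total. Bins of Dam-only cells reach it too, so a share of contacts does not give how often the locus was at the lamina. Each group of cells was taken as 1 sample, so no test was made, and intervals are exact Clopper-Pearson 95% intervals that cover counting error only. In batch 1 LMNB1 cells, 70 of 135 pairs of cell and bin were contacts, 51.9% (43.1 to 60.5%), where 34.6% of pairs over all bins were. In batch 2 LMNB1 cells, 179 of 324 pairs were contacts, 55.2% (49.7 to 60.8%), where 39.3% over all bins were. In batch 1 Dam-only cells, 9 of 27 pairs were contacts, 33.3% (16.5 to 54.0%), where 37.1% over all bins were.

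The 10 flanking bins were contacts in 12.7% of pairs in batch 1 LMNB1 cells, 14.4% in batch 2 LMNB1 cells and 43.3% in batch 1 Dam-only cells. LAD bins over the genome were contacts in 59.8% of pairs in batch 1 LMNB1 cells, 62.3% in batch 2 LMNB1 cells and 28.1% in batch 1 Dam-only cells. Bins called lower in bulk were contacts in 14.3% of pairs in batch 1 LMNB1 cells, 17.2% in batch 2 LMNB1 cells and 48.5% in batch 1 Dam-only cells. In LMNB1 cells the locus stood nearer to LAD bins than to the bins called lower. With each cell thinned to 10000 fragments, which left out 1 batch 1 LMNB1 cell, the shares were 32.5% in batch 1 LMNB1 cells, 38.3% in batch 2 LMNB1 cells and 11.1% in batch 1 Dam-only cells. Flanking bins were then at 13.6% in batch 1 LMNB1 cells, 16.9% in batch 2 LMNB1 cells and 20.0% in batch 1 Dam-only cells, and LAD bins at 38.3% in batch 1 LMNB1 cells, 36.8% in batch 2 LMNB1 cells and 18.4% in batch 1 Dam-only cells, so the shares depend on depth. At a threshold of 2 times the expected fragments, 33.3% of pairs were contacts in batch 1 LMNB1 cells (18.6% over all bins), 29.9% in batch 2 LMNB1 cells (18.9%) and 11.1% in batch 1 Dam-only cells (13.8%).

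Shares of cells in contact varied along the locus. The bin of PCDHA1 and PCDHA2 was a contact in 46.7% of batch 1 LMNB1 cells and 50.0% of batch 2 LMNB1 cells. PCDHA3 to PCDHA13 stood at 66.7% in batch 1 and 61.1% in batch 2, and the PCDHA C-type pair at 66.7% in batch 1 and 72.2% in batch 2. PCDHB1 and PCDHB2 stood at 53.3% in batch 1 and 69.4% in batch 2, and the bin of 10 PCDHB genes at 66.7% in batch 1 and 72.2% in batch 2. PCDHB12 to PCDHB15 stood at 66.7% in batch 1 and 52.8% in batch 2. The first PCDHG bin stood at 46.7% in batch 1 and 47.2% in batch 2 and the second, with the C-type genes, at 40.0% in batch 1 and 47.2% in batch 2. With bulk DamV133A library 1 alone as the expectation, the first PCDHG bin stood level with that of PCDHB1 and PCDHB2 in batch 1 (53.3%) and with that of PCDHB12 to PCDHB15 in batch 2 (52.8%), so the order of these bins is not settled. The DIAPH1 bin was a contact in 13.3% of batch 1 cells and 25.0% of batch 2 cells. The interval for a single bin is wide: for the bin of PCDHA3 to PCDHA13 in batch 1 it ran from 38.4 to 88.2%, and neighbouring bins overlapped.

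Cells differed from each other over the whole locus. The log2 ratio of observed to expected fragments over the 9 bins, with 0.5 added to each, had a median of 0.57 in batch 1 LMNB1 cells (−3.44 to 1.34), 0.58 in batch 2 LMNB1 cells (−1.74 to 1.51) and 0.03 in batch 1 Dam-only cells (−0.61 to 0.23). It was above 0 in 11 of 15 batch 1 LMNB1 cells, 28 of 36 batch 2 LMNB1 cells and 2 of 3 batch 1 Dam-only cells. This ratio is scaled to totals, without TMM. On that scale the summed bulk DamV133A-LMNB1 libraries had 0.12 over the locus and −1.11 over the flanks. The cell medians therefore cannot be set against the bulk fold changes with TMM. The locus stood above its own flanks in 12 of 15 batch 1 LMNB1 cells, 35 of 36 batch 2 LMNB1 cells and 2 of 3 batch 1 Dam-only cells. The lowest cell, of batch 1, held 1 fragment in the locus where 15.8 were expected, and the highest of batch 2 held 136 where 47.4 were expected.

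The median number of bins in contact was 6 of 9 in batch 1 LMNB1 cells, 5 in batch 2 LMNB1 cells and 3 in batch 1 Dam-only cells. At the upper end, 4 batch 1 and 10 batch 2 LMNB1 cells had 7 or 8 bins in contact. At the lower end, 5 batch 1 and 4 batch 2 LMNB1 cells had 0 to 2. These numbers move with depth: 2 of the 5 batch 1 cells held 9526 and 15320 fragments in all, with 4 and 2 in the locus where 2.53 and 4.07 were expected. The locus held a median of 43 fragments in batch 1 LMNB1 cells, 40.5 in batch 2 LMNB1 cells and 29 in batch 1 Dam-only cells, so a bin held few fragments in a cell.

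**Figure D3:**
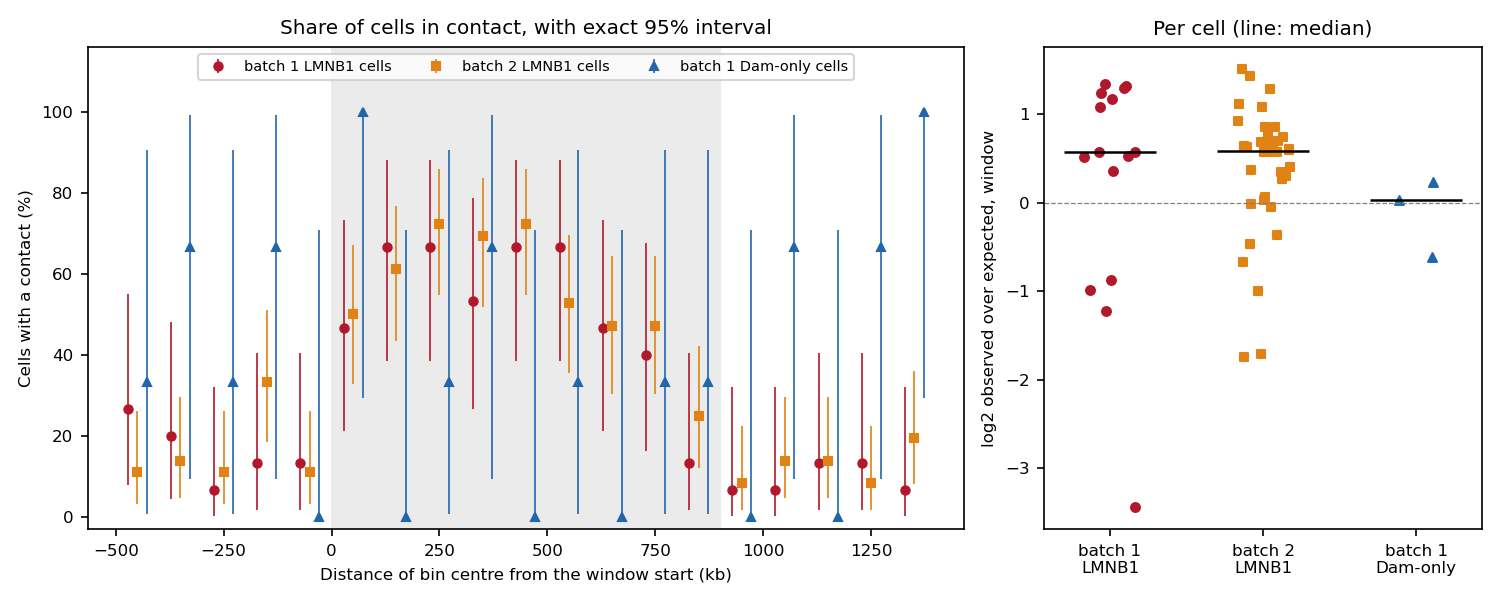
The left panel plots the share of cells in which a 100 kb bin was a contact, with exact 95% intervals, by distance from the start of the locus, which is shaded. Red marks 15 batch 1 LMNB1 cells, orange 36 batch 2 LMNB1 cells and blue 3 batch 1 Dam-only cells, and the LMNB1 shares lie above the flanks over the members and drop at DIAPH1. The right panel plots the log2 ratio of observed to expected fragments of the locus in each cell, with the group median as a line, at 0.57, 0.58 and 0.03.

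RNA from the locus was scarce in every library. The members together gave 930.2 to 1492.9 estimated counts per library, 0.002121 to 0.002901% of the total. All 53 had a count in at least 1 library and 31 in all 8, and the median member averaged 0.121 CPM. Of 53 members, 23 passed the low-count filter: 3 of 13 PCDHA, 8 of 16 PCDHB, 6 of 12 PCDHGA, 4 of 7 PCDHGB and 2 of 5 C-type genes. Reads of the constant exons shared by the PCDHA genes and by the PCDHG genes cannot be assigned to 1 member by sequence, how the estimated counts share them is not stated, and the PCDHB genes resemble each other, so the level of any single member is uncertain. In bulk RNA, fewer cells that express a gene and less RNA per cell cannot be told apart.

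A few members held most of the RNA. The 2 highest, PCDHGC3 and PCDHGA11, had 51.3% of the members' counts and the 6 highest 74%. PCDHGC3, a C-type gamma gene that lies last but 2 in its cluster, had 8.59 and 8.11 CPM with DamV133A-LMNB1, 8.63 and 9.76 CPM with DamV133A, 9.25 and 8.24 CPM with m6A-Tracer, and 12.7 and 7.72 CPM in untreated cells. The groups overlapped, and DamV133A-LMNB1 over DamV133A was −0.14 on the log2 scale (adjusted p = 0.651). PCDHGA11, a variable gamma gene, had 5.40 and 3.48 CPM with DamV133A-LMNB1, 4.06 and 3.74 CPM with DamV133A, 4.09 and 3.93 CPM with m6A-Tracer, and 3.80 and 6.89 CPM in untreated cells, again with overlap (0.19 for DamV133A-LMNB1 over DamV133A, adjusted p = 0.657). Both start in the bin called higher in bulk DamID at 141.4 Mb. In the section from PCDHGC3 to the end of the PCDHG genes, the variant libraries overlapped with both enzymes.

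**Figure D4:**
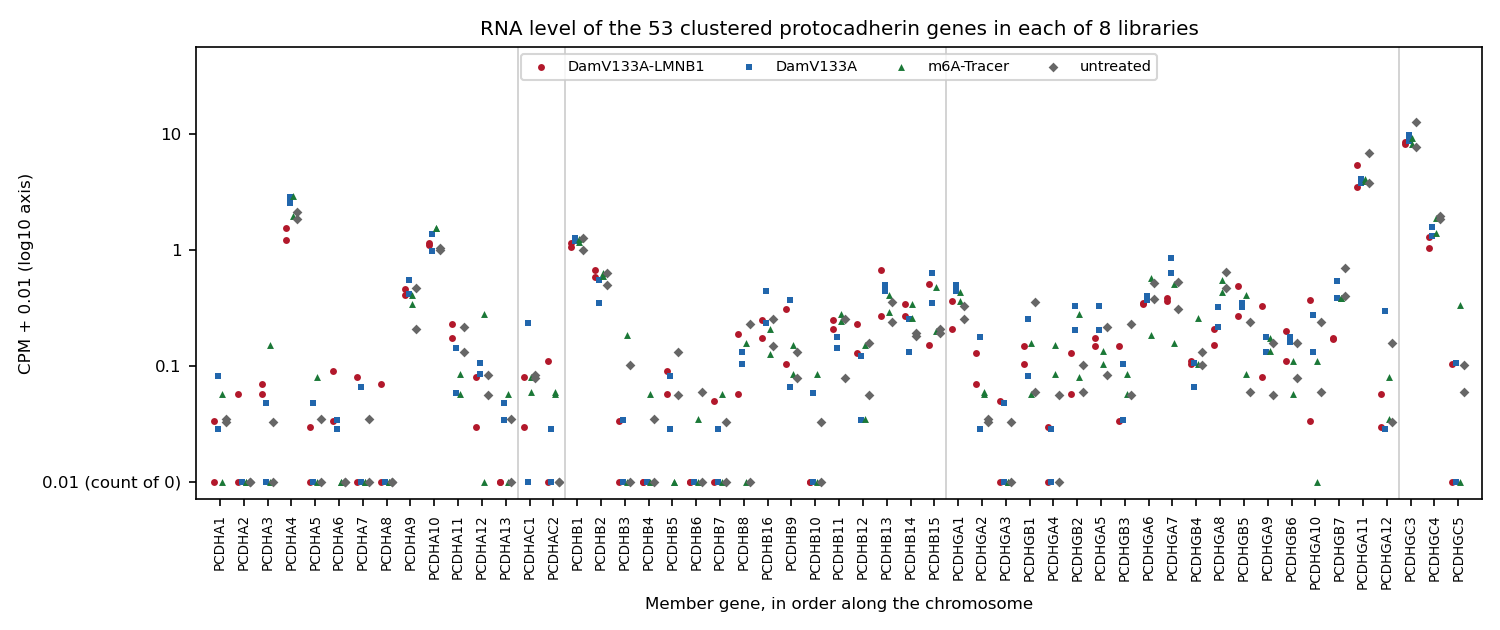
RNA level of the 53 members in each of 8 libraries, as CPM plus 0.01 on a log10 axis, in order along the chromosome. Colour and shape mark the 4 groups, points at 0.01 are counts of 0, and vertical lines part the C-type and the clusters. PCDHA4, PCDHA10, PCDHB1, PCDHGA11, PCDHGC3 and PCDHGC4 stand near or above 1 CPM, while most others lie below 0.5 CPM.

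The remaining C-type members ranged widely. PCDHGC4 had 1.04 and 1.28 CPM with DamV133A-LMNB1, 1.31 and 1.58 CPM with DamV133A, 1.39 and 1.88 CPM with m6A-Tracer, and 1.83 and 1.96 CPM in untreated cells. Its fusion libraries lay below the untreated ones, with a log2 fold change of −0.72 ± 0.23 that missed the threshold (adjusted p = 0.0682) and passed it without DamV133A-LMNB1 replicate 2 (−0.87, adjusted p = 0.0421). PCDHGC5 had 0 and 4 counts with DamV133A-LMNB1, 4 and 0 with DamV133A, 13 and 0 with m6A-Tracer and 4 and 2 in untreated cells. PCDHAC1 had 1 and 3 counts with DamV133A-LMNB1, 0 and 12 with DamV133A, 2 and 3 with m6A-Tracer and 3 and 3 in untreated cells. PCDHAC2 had 5 and 0 counts with DamV133A-LMNB1, 0 and 1 with DamV133A, 2 and 2 with m6A-Tracer and 0 and 0 in untreated cells. PCDHGC5, PCDHAC1 and PCDHAC2 did not pass the filter and were not tested.

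Among PCDHA genes, PCDHA10 followed PCDHA4 in level. PCDHA10 had 1.14 and 1.09 CPM with DamV133A-LMNB1, 0.967 and 1.35 CPM with DamV133A, 1.54 and 1.53 CPM with m6A-Tracer, and 0.984 and 1.03 CPM in untreated cells. The tracer libraries lay above the untreated ones (0.61 ± 0.24 on the log2 scale, unadjusted p = 0.0331, adjusted p = 0.133). Among PCDHB genes, PCDHB1 was highest, with 1.06 and 1.14 CPM with DamV133A-LMNB1, 1.26 and 1.18 CPM with DamV133A, 1.17 and 1.22 CPM with m6A-Tracer, and 0.984 and 1.25 CPM in untreated cells. Per kb of span, the mean level over 8 libraries was 0.145 CPM for PCDHB1 and 0.136 CPM for PCDHB2, followed by 0.0833 for PCDHB15 and 0.0764 for PCDHB13. The lowest were PCDHB6 at 0.00286 and PCDHB4 at 0.00235. PCDHB1 spans 7973 bp and overlaps the antisense gene PCDHB1-AS1, whose reads cannot be told from its own where strand was not used.

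Of 23 members tested, 0 rose and 1 fell with DamV133A-LMNB1 against DamV133A, where 20.3% of 17740 genes changed and 7.55% fell; 2 members had an unadjusted p under 0.05 and DESeq2 called 1. Against untreated cells, 0 rose and 2 fell with DamV133A-LMNB1, where 18.9% of genes changed and 7.56% fell; 3 members had an unadjusted p under 0.05 and DESeq2 called 0. Other comparisons called 0 members by edgeR and by DESeq2. They were DamV133A against untreated cells (1 member with an unadjusted p under 0.05, 26.7% of genes called), m6A-Tracer against untreated cells (1 member, 12.3%), DamV133A against m6A-Tracer (0 members, 0.124%) and DamV133A-LMNB1 against m6A-Tracer (3 members, 0.231%). These shares are edgeR's. In the same order, DESeq2 called 4250, 2168, 57 and 2551 of 17740 genes. How many genes differ between DamV133A-LMNB1 and m6A-Tracer thus depends on the test. The comparisons share libraries and are not independent.

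The median log2 fold change with DamV133A-LMNB1 against DamV133A was −0.18 over the tested members and −0.02 over all genes. With DamV133A-LMNB1 against untreated cells it was 0.10 over the members and 0.00 over all genes, and with DamV133A against untreated cells 0.21 over the members and 0.01 over all genes. Summed over a subcluster, the 13 PCDHA genes had 3.53 and 3.19 CPM with DamV133A-LMNB1, against 4.47 and 4.84 with DamV133A, 4.24 and 5.11 with m6A-Tracer, and 3.57 and 3.63 in untreated cells. The 16 PCDHB genes had 4.30 and 3.26 CPM with DamV133A-LMNB1, against 4.04 and 3.45 with DamV133A, 3.89 and 3.34 with m6A-Tracer, and 2.70 and 3.63 in untreated cells. Without PCDHA4, the PCDHA sums were 1.99 and 1.99 CPM with DamV133A-LMNB1 against 1.64 and 2.31 with DamV133A. They were 2.28 and 2.21 with m6A-Tracer and 1.74 and 1.52 in untreated cells. The fusion and DamV133A sums then overlapped, and the fusion sums lay above the untreated ones. The 12 PCDHGA genes had 7.47 and 5.09 CPM with DamV133A-LMNB1 against 6.70 and 6.51 with DamV133A, and the C-type genes 9.74 and 9.56 against 10.0 and 11.6. The 7 PCDHGB genes had 1.24 and 0.875 CPM with DamV133A-LMNB1 against 1.40 and 1.58 with DamV133A. They had 1.29 and 1.08 with m6A-Tracer, which overlapped the fusion, and 1.26 and 1.32 in untreated cells. Between DamV133A-LMNB1 and DamV133A, sums overlapped in PCDHB and PCDHGA and not in PCDHGB and the C-type genes. How often sums of other genes fail to overlap between 2 and 2 libraries was not counted, so this is a description. No test was made on sums.

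PCDHA4 fell with DamV133A-LMNB1 against DamV133A. It had 1.53 and 1.21 CPM with DamV133A-LMNB1 against 2.83 and 2.53 CPM with DamV133A, from 77 and 51 estimated counts against 117 and 135, with 1.96 and 2.90 CPM with m6A-Tracer and 1.83 and 2.11 CPM in untreated cells. The fusion libraries were the lowest of the 8. The log2 fold change was −0.96 ± 0.24 (SE, adjusted p = 0.0309) against DamV133A. It was −0.82 against m6A-Tracer (adjusted p = 0.0746), a value called without DamV133A-LMNB1 replicate 1 (−0.98, adjusted p = 0.0116), and −0.52 against untreated cells (adjusted p = 0.168). The call against DamV133A was lost without DamV133A replicate 1 (−0.88, adjusted p = 0.150) or replicate 2 (−1.04, adjusted p = 0.163), where 1 gene of the whole table was called, and with only the 4 libraries of the groups compared (adjusted p = 0.147).

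PCDHGA8, a variable gamma gene, fell with DamV133A-LMNB1 against untreated cells. It had 0.199 and 0.142 CPM with DamV133A-LMNB1, 0.314 and 0.207 CPM with DamV133A, 0.421 and 0.541 CPM with m6A-Tracer, and 0.458 and 0.638 CPM in untreated cells. These values stand on 10 and 6 estimated counts with DamV133A-LMNB1 and 20 and 26 in untreated cells. The log2 fold change of DamV133A-LMNB1 over untreated was −1.65 ± 0.45 (adjusted p = 0.0399), and that of DamV133A over untreated was −1.08 (adjusted p = 0.101). The call was lost without DamV133A-LMNB1 replicate 2 (adjusted p = 0.121), untreated replicate 1 (0.114) or untreated replicate 2 (0.215).

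PCDHGB7, from the neighbouring gamma B subfamily, also fell with DamV133A-LMNB1 against untreated cells. It had 0.159 and 0.166 CPM with DamV133A-LMNB1, 0.532 and 0.376 CPM with DamV133A, 0.372 and 0.377 CPM with m6A-Tracer, and 0.389 and 0.687 CPM in untreated cells. The fusion libraries were the lowest of the 8, on 8 and 7 estimated counts against 17 and 28 in untreated cells. The log2 fold change was −1.71 ± 0.47 (adjusted p = 0.0394) against untreated cells and −1.46 ± 0.47 (adjusted p = 0.0599) against DamV133A. Leaving out any of the 4 libraries ended the call, with adjusted p from 0.0684 without DamV133A-LMNB1 replicate 1, through 0.0761 without its replicate 2 and 0.0775 without untreated replicate 1, to 0.238 without untreated replicate 2. DESeq2 gave no adjusted p for PCDHGA8 or PCDHGB7.

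**Figure D5:**
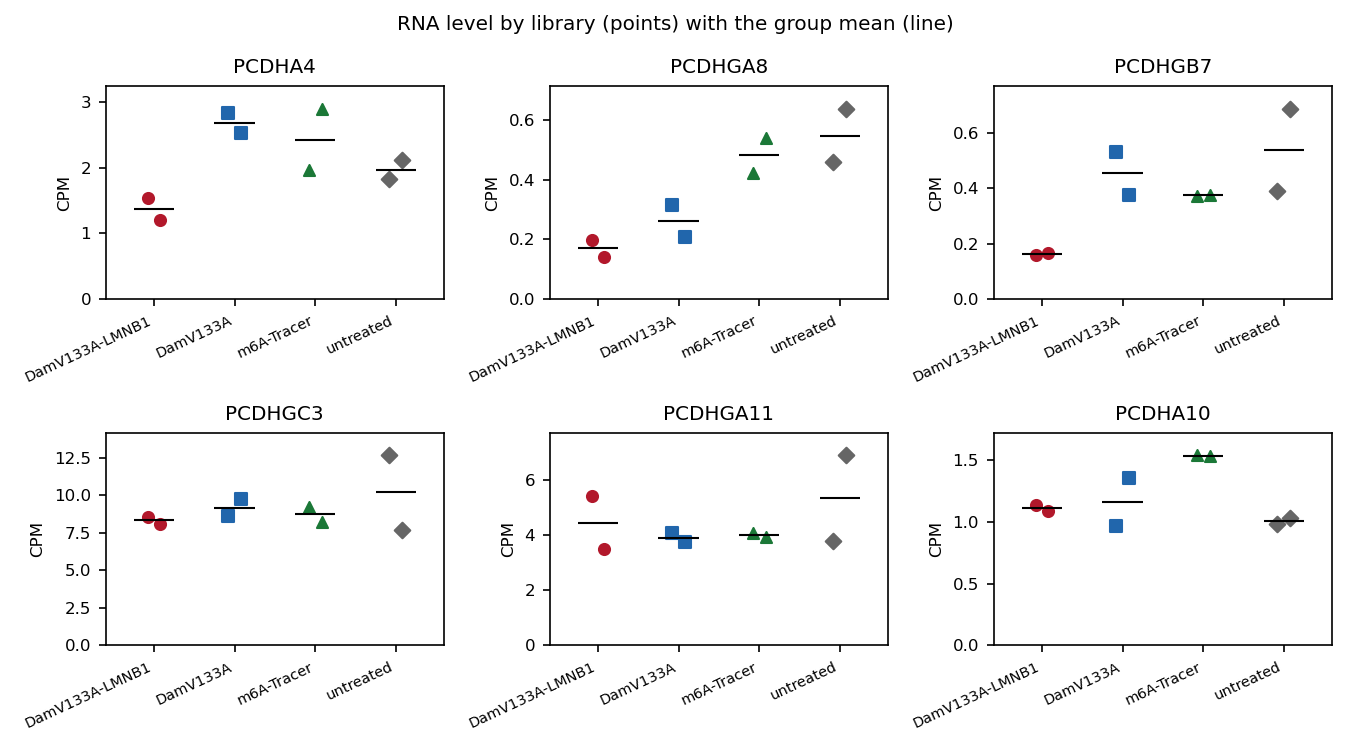
RNA level in CPM of PCDHA4, PCDHGA8, PCDHGB7, PCDHGC3, PCDHGA11 and PCDHA10 by group, with a point per library and a line at the mean of 2. For PCDHA4, PCDHGA8 and PCDHGB7 both DamV133A-LMNB1 points are the lowest of the 8, and for PCDHGC3 and PCDHGA11 the groups overlap.

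By start, PCDHA4 lies in a bin called higher in bulk DamID (log2 fold change 1.00), PCDHGB7 in another (0.57), and PCDHGA8 in a bin that was not called (0.05). By midpoint, PCDHGA8, which spans 120343 bp, lies in the same called bin as PCDHGB7. PCDHGC3 and PCDHGA11, whose RNA was highest, share the bin of PCDHGB7. A call for a bin does not place contact at a single gene in it.

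The related gene lists below are set against the share of all genes called: with DamV133A-LMNB1, 20.3% against DamV133A (7.55% of all genes fell) and 18.9% against untreated cells (7.56% fell), and 26.7% with DamV133A and 12.3% with m6A-Tracer against untreated cells. These calls rest on a fit that shares the spread of all 8 libraries. Fitting only the 4 libraries compared called 1 gene of 17319 with DamV133A-LMNB1 against DamV133A, LMNB1 itself, so that none of the listed calls held there. Against untreated cells that fit called 244 of 16855 genes with DamV133A-LMNB1, among them 0 of the regulators, partners, non-clustered protocadherins and neighbours and 2 of the HEK293T markers. For DamV133A against untreated cells it called more genes than the shared fit, with 4252 of 17154 higher and 4472 lower. For m6A-Tracer against untreated cells 3346 of 16996 were higher and 3531 lower. More genes of each of these lists were called in both. Leaving out either DamV133A-LMNB1 library leaves 1 in that group and moved the calls over all genes, so no such counts are given. Replicate 2 is the library that stands apart.

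Of 23 architecture and chromatin regulators, all tested, 0 rose and 4 fell with DamV133A-LMNB1 against DamV133A. They were the cohesin subunit STAG1 (−0.40), the cohesin regulators PDS5A (−0.33) and PDS5B (−0.28), and the maintenance methyltransferase DNMT1 (−0.29). Against untreated cells, 0 rose and 6 fell: the cohesin subunits SMC1A (−0.43), STAG2 (−0.37), SMC3 (−0.29) and RAD21 (−0.18), PDS5A (−0.35) and the demethylase TET1 (−0.65). With DamV133A against untreated cells, 3 rose, STAG1 (0.40), DNMT1 (0.30) and the cohesin release factor WAPL (0.29), and with m6A-Tracer against untreated cells 1 rose, DNMT1 (0.23). Fitting only the libraries compared gave calls in both directions. There 7 regulators rose and 6 fell with DamV133A, and 8 rose and 6 fell with m6A-Tracer. STAG1 had 73.8 and 57.6 CPM and TET1 45.7 and 28.0 CPM with DamV133A-LMNB1, the second library being the lower in each. More regulators were called when either fusion library was left out, and so were more of all genes. CTCF averaged 104.5 CPM and was called in no comparison.

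Of 15 cytoplasmic partners of the protocadherins, 1 rose with DamV133A-LMNB1 against DamV133A, BRK1 (0.37), a subunit of the WAVE complex that drives actin branching. Against untreated cells, 6 fell with DamV133A-LMNB1, among them the WAVE complex members ABI2 (−0.43) and NCKAP1 (−0.39). With DamV133A against untreated cells 4 fell, among them the receptor kinase RET (−0.57) and BRK1 (−0.44), and BRK1 was the 1 that fell with m6A-Tracer (−0.35). Of 17 non-clustered protocadherins and related cadherins, which lie elsewhere in the genome or beside the window and have no shared constant exons with the clusters, 1 fell with DamV133A-LMNB1 against DamV133A, PCDH9 (−0.47). Against untreated cells 5 fell with DamV133A-LMNB1, among them PCDH11X (−0.96) and PCDH10 (−0.33), and 2 fell with DamV133A and 1 with m6A-Tracer. Against untreated cells, more partners were called when either DamV133A-LMNB1 library was left out, and so were more of all genes. More non-clustered protocadherins were called without replicate 1.

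Of 17 tested genes in and beside the locus, 4 rose and 0 fell with DamV133A-LMNB1 against DamV133A: NDUFA2 (0.54), a subunit of respiratory complex I, ZMAT2 (0.30), the histone deacetylase HDAC3 (0.29) and TAF7 (0.22), a TFIID subunit whose gene lies between PCDHB and PCDHG. Against untreated cells 2 rose, ZMAT2 (0.27) and the histidyl-tRNA synthetase HARS1 (0.19), and 1 fell, TMCO6 (−0.36). NDUFA2 had 59.6 and 73.8 CPM with DamV133A-LMNB1, with the second library the higher. Against DamV133A, more of these genes were called when either fusion library was left out, and so were more of all genes. DIAPH1, next to the PCDHG genes, averaged 224.7 CPM and TAF7 92.6 CPM, while the carrier gene SLC25A2, like TAF7 inside the locus, averaged 0.0162 CPM. Of the 10 tested HEK293T markers, which include the neurofilament genes NEFM and NEFL, 4 rose with DamV133A-LMNB1 against DamV133A, 5 fell with DamV133A-LMNB1 and 5 with DamV133A against untreated cells, and 4 fell with m6A-Tracer. Their part in the members' changes was not tested.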

How the data were processed

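Of 74 samples in 13 groups, named by their labels, 54 are single cells, 4 bulk DamID, 8 Dam variant and 8 RNA libraries. For single cells and bulk, the authors deposited counts per 100 kb bin of chromosomes 1 to 22, which per the file headers are unique fragments in single cells, together with log2 fold changes and marks of control bins that the authors computed. For the variants, the authors deposited counts per DpnI fragment, summed here to 100 kb bins (0.0201% of counts left out). RNA values are estimated counts that the authors deposited by gene and that were rounded here. The submitters' processing notes name BWA 0.7.15-r1140, SAMtools 1.9, bedtools 2.28, Trimmomatic 0.39, Salmon, DESeq2, limma and hg38, without assigning them to files. Whether counting used strand is not stated there.

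Tests used edgeR 4.0.16 under R 4.3.3 (filterByExpr, TMM, glmQLFit, glmQLFTest) on whole tables, with Benjamini-Hochberg adjusted p under 0.05 over all features as the threshold. Bulk used 4 libraries, and the variant and RNA tests 1 fit each over 8, which share an estimate of the spread. DESeq2 1.42.0 was the alternative. The count scripts were tested on simulated data for DamV133A-LMNB1 over DamV133A, with 1 spread for all features of an assay. Changes of 1 on the log2 scale were recovered for 88 of 99 RNA genes, 59 of 98 bulk bins and 0 of 99 variant bins. Changes of 2 were recovered for 95 of 97, 99 of 99 and 43 of 100. False calls made up 2.66%, 3.66% and 6.52% of calls. The changed features were few and were drawn from all that passed the filter. In the real variant data 50.7% of bins were called with V133A. Most tested members have low counts, and PCDHGB2 had −1.57 ± 0.78 with DamV133A-LMNB1 over DamV133A (edgeR unadjusted p = 0.0791). The shares recovered therefore do not describe the members or the real V133A variant comparison. Bins called higher in bulk are LAD bins here. Other steps used matplotlib 3.10.9, SciPy 1.17.1, NumPy 2.4.6 and pandas 2.3.3 in Python 3.11.15. Gene positions came from RefSeq (GRCh38.p14), and promoter coordinates are of that build.

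The members, gene lists and tests were chosen with earlier results of these data known. Values per library are given for called members, the 5 with the highest mean, the highest of each subcluster and the 5 C-type genes. Of the listed genes, called ones are named, up to 4 a list or comparison where many were called. Alternatives were other scalings, no low-count filter, DESeq2's test, a replicate block, fits on the compared groups alone, covered fragments in place of counts, leaving out each library, and for cells another threshold, expectation, depth and pseudocount (0.1).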

Additional observations from a re-analysis of the deposited data

How the results depend on the processing

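No value changed sign among the called results. Beside leaving out libraries, other settings kept 509 of the values given for single members or bins on their side of the threshold, while 12 lost and 9 gained a call. Most of the 509 were uncalled in the report and stayed so, while the 12 losses fell on the few called values. Leaving out single libraries ended further calls, as given above. For RNA members called with DamV133A-LMNB1 against DamV133A (1 in the report), fitting only the 2 groups compared gave 0. Against untreated cells (2 in the report), fitting only the 2 groups gave 0 and DESeq2's test 0, with no adjusted p for PCDHGA8 and PCDHGB7. Against m6A-Tracer (0 in the report), no low-count filter gave 1, PCDHA4 (−0.81, adjusted p = 0.00889). Without the filter 4175 of 30422 genes were called there. Library totals gave 2 called bulk bins in place of 6. DESeq2's test gave 6 variant bins with V133A in place of 3, and covered fragments gave 1 bin with wild-type Dam in place of 0. Shares of all bins called in these fits are not given, so the bin counts cannot be read against the genome. For the related gene lists, fits on 2 groups and leaving out DamV133A-LMNB1 libraries were added after seeing the data. The causes were not tested.

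Leaving out 1 library at a time gave 0 to 1 members with DamV133A-LMNB1 against each of DamV133A, untreated cells and m6A-Tracer, and 0 to 0 in the other RNA comparisons. It gave 1 to 5 bulk bins, 1 to 3 variant bins with V133A and 0 to 0 in the other variant comparisons.

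Replicate numbers do not pair the libraries: deviations of same-numbered libraries from their group means correlated at −0.0497 to 0.0312. With the replicate number as a block, 0 members were called in each of the 6 RNA comparisons, 7 bulk bins (6 higher, 1 lower), 3 variant bins with V133A and 0 in the other variant comparisons. With DamV133A-LMNB1 against DamV133A, 2077 of 17740 genes were called under the block. Shares of all bins called under it are not given. With that block, PCDHA4 had an adjusted p of 0.0521, PCDHGA8 0.0651 and PCDHGB7 0.0639.

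At a threshold of 2 times the expected fragments, contact shares were 33.3% of pairs in batch 1 LMNB1 cells, 29.9% in batch 2 LMNB1 cells and 11.1% in batch 1 Dam-only cells, and thinned to 10000 fragments they were 32.5%, 38.3% and 11.1%. Other expectations and the other pseudocount moved these shares and the medians per cell by less than their intervals or spread.

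Depth limits the RNA results: 30 members were too low to test, called members rest on 6 to 135 estimated counts a library, and 2 libraries a group leave calls that 1 library can end. In DamID, calls depend on the scaling and on single libraries, and variant libraries covered few fragments of the locus.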

Other observations

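Pseudogenes of the clusters, which the member rule leaves out, were also measured. PCDHB19P averaged 0.222 CPM over 8 libraries (80 estimated counts in all) and passed the low-count filter. PCDHGB8P averaged 0.122 CPM (44 counts) and PCDHB18P 0.0665 CPM (24 counts). PCDHGB9P had 3 counts in all, and PCDHA14 and PCDHB17P had 0. The median member averaged 0.121 CPM. Reads may be shared between these copies and the genes beside them.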
